A study of Mus musculus with 27 samples.

Results

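The genes described here are 10 genes that hepatocytes around the central vein of the liver lobule express more than hepatocytes elsewhere: Glul, Oat, Slc1a2, Rhbg, Axin2, Tbx3, Cyp2e1, Rgn, Gulo and Lect2. They were chosen by name as pericentral genes, and they are 10 of the 43346 genes in the deposited table. RNA was sequenced from liver hepatocytes of female mice aged 12 weeks. The mice came from 9 inbred strains with 3 biological replicates each, which gave 27 libraries. Of the strains WSB/EiJ, CAST/EiJ and PWK/PhJ are wild-derived and NZO/HlLtJ, DBA/2J, C57BL/6J, NOD/ShiLtJ, A/J and 129S1/SvImJ are classical laboratory strains, and no treatment is named for any of them. How the hepatocytes were isolated is not given in the sources used here. The question was whether the pericentral genes differ between strains, and whether they rise and fall together, as they would if a preparation held more or fewer cells of the pericentral zone.

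Blood flows through the lobule from the portal vein to the central vein, and hepatocytes along that path divide the work of the liver between them. Wnt ligands made by the endothelium of the central vein activate beta-catenin in the nearest hepatocytes, where TCF/LEF factors then switch on genes such as Glul, Axin2 and Tbx3. The innermost hepatocytes capture the ammonia that escaped the periportal urea cycle and fix it into glutamine, while a broader pericentral band carries out much of the oxidative metabolism of drugs and alcohol. Glul encodes glutamine synthetase, Oat the ornithine aminotransferase, Slc1a2 a glutamate transporter and Rhbg an ammonium transporter. Axin2 is a feedback inhibitor of Wnt signalling and Tbx3 a transcription factor. Cyp2e1 is the cytochrome P450 that oxidises ethanol and paracetamol. Rgn (regucalcin) and Gulo catalyse successive late steps of vitamin C synthesis, and Lect2 is a secreted protein of hepatocytes.

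The bases before a RefSeq start site of 5 of the genes are shown because these genes stand for the contrast that the results turn on: among libraries of 1 strain Oat and Slc1a2 rose with Glul by the test, and Cyp2e1 and Lect2 did not pass it. The sequences are from RefSeq on GRCm38.p6, are read 5′ to 3′ on the gene's own strand and begin 250 bases before the RefSeq start site. Those of Glul, Oat and Lect2 run up to that site; in Slc1a2 and Cyp2e1 the bases nearest to it, which lie in annotated exons, were left off, so that 168 and 170 bases are shown. The Slc1a2 window lies inside the gene as annotated, which spans bases 102658659 to 102790784 of chr2, and not before its first annotated base. Capitals mark the letters CTTTGAA or CTTTGAT, the core that TCF/LEF factors bind, searched on both strands (on the opposite strand the second reads ATCAAAG).
Glul, chr1:153899679-153899928, plus strand: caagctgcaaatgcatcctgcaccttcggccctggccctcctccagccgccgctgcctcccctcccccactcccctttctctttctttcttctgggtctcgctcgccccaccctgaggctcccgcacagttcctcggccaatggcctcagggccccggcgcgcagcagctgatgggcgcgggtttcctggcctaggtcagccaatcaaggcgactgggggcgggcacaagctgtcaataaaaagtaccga
Oat, chr7:132576399-132576648, minus strand: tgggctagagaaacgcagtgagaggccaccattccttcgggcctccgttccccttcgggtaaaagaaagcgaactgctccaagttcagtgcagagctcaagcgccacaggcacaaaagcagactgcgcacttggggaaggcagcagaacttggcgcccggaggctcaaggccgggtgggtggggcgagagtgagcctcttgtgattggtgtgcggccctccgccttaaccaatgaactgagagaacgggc
Slc1a2, chr2:102706188-102706355, plus strand: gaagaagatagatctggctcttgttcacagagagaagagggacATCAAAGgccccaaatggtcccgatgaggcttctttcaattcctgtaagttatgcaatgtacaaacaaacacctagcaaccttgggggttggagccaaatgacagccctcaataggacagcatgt
Cyp2e1, chr7:140763569-140763738, plus strand: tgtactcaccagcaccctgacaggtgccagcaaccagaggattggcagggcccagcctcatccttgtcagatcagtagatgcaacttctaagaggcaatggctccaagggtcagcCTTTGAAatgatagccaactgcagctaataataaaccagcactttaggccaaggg
Lect2, chr13:56548539-56548788, minus strand: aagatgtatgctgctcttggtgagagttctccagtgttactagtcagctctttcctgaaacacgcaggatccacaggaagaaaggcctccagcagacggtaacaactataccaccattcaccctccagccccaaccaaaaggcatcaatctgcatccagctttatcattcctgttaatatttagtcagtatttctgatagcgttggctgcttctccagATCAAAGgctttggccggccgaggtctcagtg
The letters were found once each in Slc1a2, Cyp2e1 and Lect2, beginning 207, 135 and 32 bases before the start, and they occur in 7.48% of the 32851 promoter windows of 250 bases in the same RefSeq table. They are not in the windows of Glul, Oat and Axin2. A match here describes the letters only and says nothing of binding. Of the 10 genes 6 had an entry in the table; Rhbg, Rgn, Tbx3 and Gulo are given by name only.

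Library totals ran from 17015956 to 35078511 estimated counts, and levels are given as CPM (counts scaled to a common library size) after scaling with TMM, a method that assumes that most genes do not differ between libraries. All 10 genes passed the filter on low counts, with at least 33 counts in every library. In each library the summed level of 10 general hepatocyte genes such as Alb was between 127757 and 401736 CPM. The 8 Kupffer cell markers summed to between 28.2 and 338.7 CPM and the 8 liver endothelial markers to between 46.8 and 564.2 CPM, and no marker of either list was at 0 in any library. Stellate cell markers summed to between 31.9 and 198.7 CPM, and those of cholangiocytes, lymphocytes and erythroid cells to at most 9.64, 11.2 and 34.9 CPM, with defining genes such as Krt19 and Cd3e at 0 in some libraries. The TMM factors ran from 0.722 to 1.226, so that using library totals alone moved the median of all genes, each strain against the other 8, by between -0.35 on the log2 scale (WSB/EiJ) and 0.29 (NZO/HlLtJ). Counts of the 10 genes called in a strain are given under both scalings where they differed. The kit is not stated to keep strand, so reads from Glul, Slc1a2, Axin2 and Tbx3 cannot be told apart from those of genes that overlap them on the opposite strand, and the counts of Glul, Cyp2e1 and Rhbg were fractional in all 27 libraries, so that reads may have been split between them and similar sequences. The only build named is GRCm38 (mm10), and how well reads of each strain matched it was not tested. Differences between strains in level and in matching therefore cannot be told apart. In bulk RNA, fewer pericentral cells and less of a transcript per cell cannot be told apart.

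Of the 10 genes, 8 differed among the 9 strains (edgeR quasi-likelihood F test, adjusted p under 0.05 over the 14482 genes tested), where the share of all genes tested was 74.2%. The 2 that did not pass were Axin2 (adjusted p = 0.0755) and Tbx3 (adjusted p = 0.359), both Wnt-responsive genes of low level whose libraries spread most within a strain. The difference between the highest and the lowest strain mean had a median of 1.66 on the log2 scale over the 10 genes, against 1.16 over all genes tested. Where a p is given for 2 strains it was adjusted over genes only, and takes no account of picking the pair from 36. Libraries of 1 strain had a median SD of 0.39 on the log2 scale for the 10 genes and 0.28 for all genes tested. Per kilobase of the longest annotated transcript, mean levels over all libraries ran from 3332 CPM for Cyp2e1 through 440.2 CPM for Rgn, 186 CPM for Gulo, 183 CPM for Oat, 150 CPM for Lect2 and 85.0 CPM for Glul. They reached only 5.57 CPM for Slc1a2, 4.14 CPM for Rhbg, 2.77 CPM for Tbx3 and 1.12 CPM for Axin2. The longest Slc1a2 transcript has 11595 bases, which lowers its value on that scale.

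**Figure D1:**
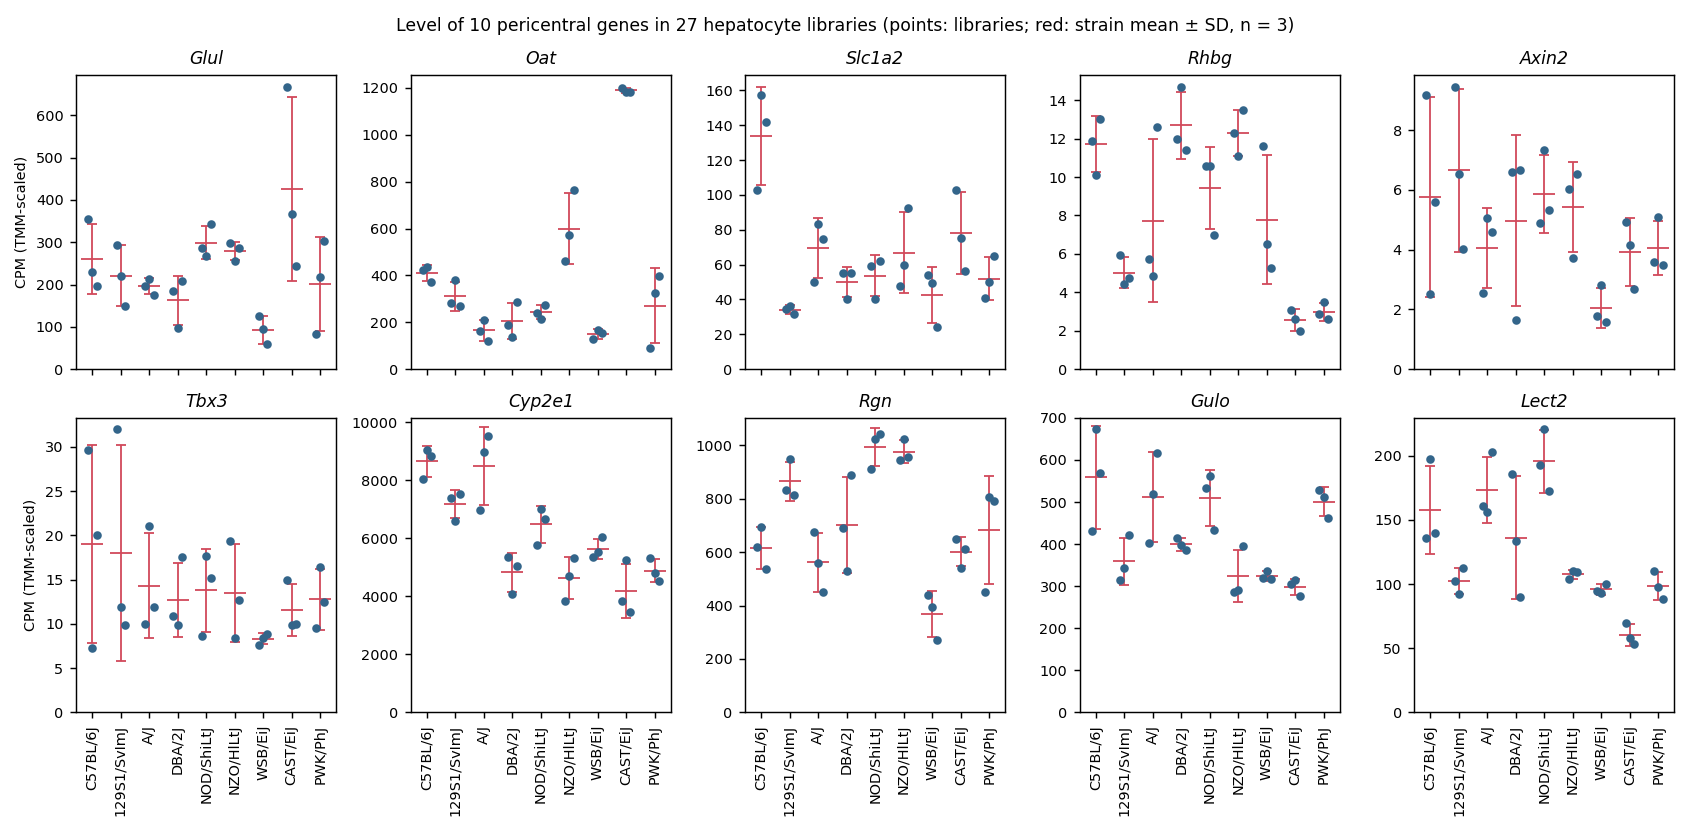
Level of the 10 pericentral genes in the 27 hepatocyte libraries (CPM after TMM scaling, linear axes from 0). Points are libraries and red bars the strain mean ± SD (n = 3); Oat in CAST/EiJ stands at 1189 ± 11.1 CPM, above all other strains, while the 3 CAST/EiJ libraries spread from 243 to 666 CPM for Glul.

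Glul, the glutamine synthetase of the innermost pericentral hepatocytes, differed 4.59-fold between the highest strain mean, in CAST/EiJ, and the lowest, in WSB/EiJ (log2 difference 2.20 ± 0.40 SE, edgeR adjusted p = 0.000147). The CAST/EiJ libraries held 666, 366 and 243 CPM and the WSB/EiJ libraries 124, 93.7 and 59.9 CPM. No WSB/EiJ library reached the lowest CAST/EiJ library. The PWK/PhJ libraries stood at 82.5, 217 and 304 CPM and the DBA/2J libraries at 184, 96.4 and 208 CPM, so that in each of these strains 1 library was far below the other two. In C57BL/6J Glul was at 354, 230.1 and 197 CPM, in 129S1/SvImJ at 294, 219 and 149.8 CPM, and in A/J at 197, 214 and 176 CPM. The libraries of NOD/ShiLtJ held 285, 268 and 343 CPM and those of NZO/HlLtJ 297, 255 and 286 CPM. Of the other strains, A/J and DBA/2J lay wholly below NOD/ShiLtJ and NZO/HlLtJ, while C57BL/6J, 129S1/SvImJ and PWK/PhJ overlapped both sides, and WSB/EiJ overlapped the low libraries of DBA/2J and PWK/PhJ. From the highest to the lowest mean the order was CAST/EiJ, NOD/ShiLtJ, NZO/HlLtJ, C57BL/6J, 129S1/SvImJ, PWK/PhJ, A/J, DBA/2J and WSB/EiJ, and none of the 8 pairs of neighbours in it differed by the test.

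Oat, which links ornithine to glutamate and proline, had the widest range of the 10 genes, 7.93-fold between CAST/EiJ and WSB/EiJ (log2 difference 2.99 ± 0.36 SE, edgeR adjusted p = 6.02e-07). Its CAST/EiJ libraries lay at 1201.5, 1181 and 1184.5 CPM, with the smallest SD of any strain (11.1 CPM), although Glul in the same libraries varied from 243 to 666 CPM. NZO/HlLtJ followed with 461, 574 and 763 CPM and C57BL/6J with 424, 436 and 373 CPM. The 129S1/SvImJ libraries held 281, 379.7 and 271 CPM, those of PWK/PhJ 92.1, 323 and 399 CPM and those of NOD/ShiLtJ 240, 214 and 274 CPM. At the low end DBA/2J had 189, 137 and 287 CPM, A/J 163, 210.3 and 122 CPM and WSB/EiJ 127, 168 and 154 CPM. CAST/EiJ stood clear of NZO/HlLtJ, the next strain (log2 difference 0.99 ± 0.34 SE, adjusted p = 0.0307), and no other neighbours in the order differed. The PWK/PhJ library that was low in Glul, replicate 1, was also low in Oat. Oat overlaps Fgfr2 on the same strand in the annotation.

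Slc1a2, which imports glutamate for glutamine synthesis, was highest in C57BL/6J at 134 ± 28.2 CPM and stood at its lowest, 34.1 ± 2.47 CPM, in 129S1/SvImJ (SD, n = 3). The C57BL/6J libraries were at 103, 158 and 142 CPM and the 129S1/SvImJ libraries at 34.5, 36.4 and 31.5 CPM, with no overlap (log2 difference 1.97 ± 0.30 SE, edgeR adjusted p = 3.52e-05). C57BL/6J also exceeded CAST/EiJ, the next in order at 78 ± 23.4 CPM, by 0.78 ± 0.29 SE on the log2 scale (adjusted p = 0.0347), although the highest CAST/EiJ library, 102.7 CPM, lay just under the lowest of C57BL/6J, 102.8 CPM. A/J (50.2, 83.3 and 74.9 CPM), NZO/HlLtJ (47.7, 60 and 92.7 CPM), NOD/ShiLtJ (59, 40.2 and 62 CPM), PWK/PhJ (40.8, 50 and 65 CPM), DBA/2J (55.1, 40.3 and 55.2 CPM) and WSB/EiJ (54.3, 49.6 and 24.2 CPM) followed. Their libraries overlapped, and no neighbours among them differed. Rhbg, which moves ammonium across the hepatocyte membrane, had another order: DBA/2J, NZO/HlLtJ, C57BL/6J, NOD/ShiLtJ, WSB/EiJ, A/J, 129S1/SvImJ, PWK/PhJ and CAST/EiJ. DBA/2J held 12, 14.7 and 11.4 CPM and CAST/EiJ 3.07, 2.63 and 1.96 CPM (log2 difference 2.29 ± 0.31 SE, adjusted p = 2.55e-06). All 3 PWK/PhJ libraries, at 2.88, 3.47 and 2.59 CPM, lay in the range of CAST/EiJ or just above it, and those of 129S1/SvImJ, at 5.92, 4.41 and 4.76 CPM, came next. NZO/HlLtJ (12.3, 11.1 and 13.5 CPM), C57BL/6J (11.9, 10.1 and 13 CPM) and NOD/ShiLtJ (10.6, 10.6 and 6.97 CPM) were near DBA/2J. In A/J (5.71, 4.87 and 12.6 CPM) and WSB/EiJ (11.6, 6.53 and 5.25 CPM) 1 library stood well above the other two. CAST/EiJ was thus the highest strain for Glul and Oat and the lowest for Rhbg. Rhbg overlaps the protein-coding Gm38392 on the same strand.

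Axin2 and Tbx3, a feedback inhibitor and a transcription factor that Wnt signalling switches on, showed large spreads within strains and few differences between them. Axin2 in 129S1/SvImJ was at 9.46, 6.52 and 4.01 CPM and in WSB/EiJ at 1.77, 2.82 and 1.57 CPM, and these strains, the highest and the lowest, differed by 1.69 ± 0.46 SE on the log2 scale. No p is given for that pair, since it was picked as the extremes of a gene that did not pass the test over strains. Between them lay NOD/ShiLtJ, C57BL/6J, NZO/HlLtJ, DBA/2J, A/J, PWK/PhJ and CAST/EiJ, in that order, with no difference between neighbours. In C57BL/6J the 3 libraries ranged from 2.5 to 9.19 CPM and in DBA/2J from 1.66 to 6.66 CPM. Tbx3 was at 29.7, 7.31 and 20.1 CPM in C57BL/6J, its highest strain, and at 7.63, 8.43 and 8.88 CPM in WSB/EiJ, its lowest. None of the 36 pairs of strains differed in Tbx3, whose order was C57BL/6J, 129S1/SvImJ, A/J, NOD/ShiLtJ, NZO/HlLtJ, PWK/PhJ, DBA/2J, CAST/EiJ and WSB/EiJ. In both genes replicate 1 of C57BL/6J and replicate 1 of 129S1/SvImJ were the highest libraries of their strain.

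Cyp2e1, the most abundant of the genes, varied less than the others within strains (SD 0.19 on the log2 scale). C57BL/6J held 8055, 9066 and 8842 CPM and A/J 6965, 8964 and 9532 CPM, against 3829, 5246 and 3471 CPM in CAST/EiJ. The C57BL/6J mean was 2.07-fold that of CAST/EiJ (log2 difference 1.05 ± 0.18 SE, edgeR adjusted p = 8.7e-05), and no C57BL/6J or A/J library overlapped those of CAST/EiJ. 129S1/SvImJ held 7409, 6614 and 7520 CPM and NOD/ShiLtJ 5781, 7003 and 6681 CPM. Lower down WSB/EiJ held 5364, 5525 and 6038 CPM, PWK/PhJ 5311, 4804 and 4535 CPM, DBA/2J 5373, 4075 and 5051 CPM and NZO/HlLtJ 3856, 4701.5 and 5309 CPM. The order was C57BL/6J, A/J, 129S1/SvImJ, NOD/ShiLtJ, WSB/EiJ, PWK/PhJ, DBA/2J, NZO/HlLtJ and CAST/EiJ, a gradual series in which no neighbours differed by the test.

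Rgn, the lactonase of vitamin C synthesis, was highest in NOD/ShiLtJ (911, 1026 and 1042 CPM) and NZO/HlLtJ (946, 1025 and 956 CPM) and lowest in WSB/EiJ (439, 396 and 271 CPM). The step from NOD/ShiLtJ to WSB/EiJ was 1.43 ± 0.22 SE on the log2 scale (edgeR adjusted p = 3.75e-05). The 129S1/SvImJ libraries were at 834, 949.8 and 816 CPM, those of DBA/2J at 690, 528 and 887 CPM and those of PWK/PhJ at 451, 806 and 791 CPM. In C57BL/6J Rgn was at 619, 694 and 537 CPM, in CAST/EiJ at 649.5, 541 and 613 CPM and in A/J at 674, 559 and 452 CPM. Replicate 3 of DBA/2J and replicate 1 of PWK/PhJ, the low libraries of these strains for Glul and Oat, were again the lowest. No neighbours in the order differed. Gulo, which catalyses the last step of that synthesis, had a different order, C57BL/6J, A/J, NOD/ShiLtJ, PWK/PhJ, DBA/2J, 129S1/SvImJ, NZO/HlLtJ, WSB/EiJ and CAST/EiJ, and the narrowest range of the genes. It was at 431.5, 674 and 570.0 CPM in C57BL/6J and at 305, 314 and 277 CPM in CAST/EiJ, a 1.87-fold difference of means (log2 difference 0.90 ± 0.18 SE, adjusted p = 0.000306). NOD/ShiLtJ, the highest strain for Rgn, held 509.5 ± 66.9 CPM of Gulo, and NZO/HlLtJ, nearly as high for Rgn, 325 ± 61.5 CPM (SD, n = 3).

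Lect2 was highest in NOD/ShiLtJ, at 193, 221 and 173 CPM, and lowest in CAST/EiJ, at 69.5, 57.8 and 53.6 CPM (log2 difference 1.70 ± 0.20 SE, edgeR adjusted p = 3.79e-07). WSB/EiJ, next to last at 94.2, 92.8 and 100.4 CPM, still exceeded CAST/EiJ by 0.67 ± 0.19 SE (adjusted p = 0.00943), and the libraries of these 2 strains did not overlap. Above them came PWK/PhJ (109.8, 97.9 and 88 CPM), 129S1/SvImJ (102, 91.9 and 112.5 CPM), NZO/HlLtJ (104, 109.9 and 109 CPM), DBA/2J, C57BL/6J (136, 197 and 140.0 CPM) and A/J (161, 156 and 203 CPM), without a difference between neighbours. The DBA/2J libraries, at 186, 133 and 89.8 CPM, covered most of the range. Over the 10 genes only 3 of 80 pairs of neighbouring strains differed, those of Oat, Slc1a2 and Lect2 given above. Over all pairs of strains Lect2 differed in 20 of 36, Oat and Rhbg in 17 each, Cyp2e1 and Gulo in 15 each, Rgn in 14, Slc1a2 in 12, Glul in 9, Axin2 in 4 and Tbx3 in 0. The median share of all genes that differed in a pair was 26.2%, and pairs share libraries.

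Each strain was then compared with the mean of the other 8, which says where the genes stood high or low at once. Of the 90 gene-by-strain comparisons 30 passed the test (edgeR quasi-likelihood test, adjusted p under 0.05 over all genes in each strain). In WSB/EiJ 5 of the 10 genes were lower and 0 higher, where 9.25% of all genes tested were lower and 15.5% higher (24.7% in either direction): Glul (log2 change -1.40 ± 0.33 SE, adjusted p = 0.00226), Axin2 (-1.28 ± 0.38), Oat (-1.20 ± 0.28), Rgn (-0.99 ± 0.18) and Gulo (-0.38 ± 0.14). Only Rhbg, at 0.18 ± 0.21 (adjusted p = 0.593), was not below 0. With library totals the WSB/EiJ count became 9 lower and 0 higher. Of all genes 4490 were then lower and 1108 higher, in place of 1339 and 2242, so that 19.8% of called genes were higher in place of 62.6%. The call of Axin2 in WSB/EiJ needed replicates 2 and 4: without the one or the other the edgeR adjusted p was 0.0782 or 0.0894. The call of Gulo, at an adjusted p of 0.0409, was kept in 19 of the 27 fits that each left out 1 library. It was lost without any 1 of the WSB/EiJ libraries (adjusted p from 0.104 to 0.135), without CAST/EiJ replicate 1 or 4, NOD/ShiLtJ replicate 1 or 2 or PWK/PhJ replicate 2 (0.0507 to 0.0557), with median-of-ratios factors (0.0509) and with no filter (0.0781). None of the Kupffer cell markers and 1 of the 8 endothelial markers, lower, passed the test in WSB/EiJ.

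In C57BL/6J 5 genes were higher and 0 lower, where 11.6% of all genes were higher and 6.5% lower (18.1% in either direction): Slc1a2 (1.31 ± 0.19 SE, edgeR adjusted p = 1.97e-05), Rhbg (0.83 ± 0.20), Cyp2e1 (0.62 ± 0.13), Gulo (0.50 ± 0.13) and Lect2 (0.47 ± 0.14). Of the Kupffer cell markers 8 of 8 were higher in the same strain, with sums of 167 to 221 CPM. In a fit added after the data were seen, with the mean levels of the Kupffer cell and endothelial lists in the model, Slc1a2 and Cyp2e1 were still called. Rhbg (0.88, adjusted p = 0.0673), Gulo (0.50, adjusted p = 0.0507) and Lect2 (0.25, adjusted p = 0.541) were not, and Oat was (1.03, adjusted p = 0.0237). Library totals left 4 of the 5, without Lect2 (adjusted p = 0.0865), beside 1076 of all genes higher and 1100 lower. Without replicate 2, Lect2 (0.27, adjusted p = 0.319) and Gulo (0.34, adjusted p = 0.153) were not called, and without replicate 4 Rhbg (0.75, adjusted p = 0.0558) was not.

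CAST/EiJ split the genes. Oat (2.16 ± 0.21 SE, edgeR adjusted p = 8.46e-09) and Glul (1.07 ± 0.26, adjusted p = 0.00228) were higher, and Rhbg (-1.61 ± 0.25), Lect2 (-1.09 ± 0.16), Cyp2e1 (-0.56 ± 0.14) and Gulo (-0.51 ± 0.14) were lower, where 20.1% of all genes were higher and 17.8% lower (37.9% in either direction). Library totals gave 3 higher and 3 lower, with Slc1a2 (0.65, adjusted p = 0.0211) added to the higher genes and Gulo (-0.28, adjusted p = 0.0502) no longer called; of all genes 4465 were then higher and 1641 lower, in place of 2917 and 2571. The Glul difference rested on replicate 1: without it the value was 0.59 (adjusted p = 0.16), while Oat kept its call. Without replicate 5 Cyp2e1 (-0.44, adjusted p = 0.05) was no longer under the threshold. In replicate 1 the endothelial markers summed to 48.8 CPM, against 125 and 131 CPM in the other 2. Of the Kupffer cell markers 5 of 8 were lower in CAST/EiJ (3 with library totals) and 0 higher, and of the hepatocyte markers 5 of 10 were lower and 0 higher (5 and 1 with library totals). PWK/PhJ shared the low Rhbg (-1.39 ± 0.25, adjusted p = 9.98e-05) and no other call, where 14.8% of all genes were lower and 19.4% higher (34.2% in either direction). Gulo in PWK/PhJ (0.32 ± 0.13, adjusted p = 0.0529) lay just outside the threshold and was called higher by DESeq2 (adjusted p = 0.0315), with library totals (0.0121), with median-of-ratios (0.0483) or upper-quartile (0.035) factors and with a mean of at least 10 counts (0.0454). Of all genes 2737 were then higher and 1676 lower in PWK/PhJ with library totals, in place of 2812 and 2138. DESeq2 also called Cyp2e1 lower there (-0.29, adjusted p = 0.0378). In PWK/PhJ 8 of the 8 endothelial markers were higher, with sums of 564, 170.5 and 206 CPM, as were 4 of the 8 Kupffer cell markers (1 was lower) and 4 of the 8 stellate cell markers (0 were lower). In the fit with both lists in the model 25 of the 90 comparisons were called, and the part of other cells in these differences was not tested further.

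In the other strains the calls went in either direction. NZO/HlLtJ had higher Oat (1.05 ± 0.23 SE), Rhbg (0.91 ± 0.19) and Rgn (0.59 ± 0.15) and lower Cyp2e1 (-0.40 ± 0.14) and Gulo (-0.38 ± 0.14), where 14.8% of all genes were higher and 12.9% lower (27.6% in either direction). The NZO/HlLtJ calls of Cyp2e1 (-0.11) and Gulo (-0.08) were lost with library totals, with edgeR adjusted p = 0.514 and 0.569, and without NZO/HlLtJ replicate 1 (-0.28 and -0.30, adjusted p = 0.27 and 0.238) or 2 (-0.41 and -0.31, adjusted p = 0.125 and 0.226). Library totals gave 3 higher and 0 lower in NZO/HlLtJ, beside 5118 and 947 of all genes in place of 2141 and 1861. With no filter both calls were lost too (adjusted p = 0.152 and 0.0955), and of the 27 fits that each left out 1 library 22 kept Cyp2e1 and 18 kept Gulo. That of Rgn was lost without replicate 2 (0.55, adjusted p = 0.0521). In this strain 5 of the 8 endothelial markers were lower (3 with library totals), as were 5 of the 8 stellate cell markers, and 0 of either list were higher. Of the 10 hepatocyte markers 4 were lower and 1 higher (1 and 1 with library totals). With the Kupffer cell and endothelial covariates only Rhbg was called in NZO/HlLtJ. A/J had higher Lect2 (0.62 ± 0.14), Cyp2e1 (0.59 ± 0.13) and Gulo (0.36 ± 0.13) and lower Oat (-1.05 ± 0.27), where 15.9% of all genes were higher and 11.6% lower (27.5% in either direction). Library totals gave 0 higher and 2 lower in A/J, where 1008 of all genes were then higher and 4100 lower, in place of 2308 and 1681. Of the Kupffer cell markers 7 of 8 were higher in A/J (4 with library totals) and 0 lower, and of the hepatocyte markers 8 of 10 were higher and 1 lower (7 and 2 with library totals). The A/J call of Gulo was lost with no filter (0.35, edgeR adjusted p = 0.0813) and kept in 23 of the 27 fits that each left out 1 library. Without A/J replicate 3, Oat (-0.88, adjusted p = 0.0774), Lect2 (0.48, adjusted p = 0.0511) and Gulo (0.20, adjusted p = 0.429) were not called. With the 2 covariates Oat (-0.61, adjusted p = 0.163) and Lect2 (0.48, adjusted p = 0.0632) were not. NOD/ShiLtJ had higher Lect2 (0.81 ± 0.13) and Rgn (0.62 ± 0.15), where 9.2% of all genes were higher and 5.72% lower (14.9% in either direction); Rgn lost its call without replicate 2 or 3 (adjusted p = 0.0535 or 0.0538). DBA/2J had higher Rhbg (0.97 ± 0.20) where 9.5% of all genes were higher and 3.78% lower (13.3% in either direction). DESeq2 also called Oat (-0.7, adjusted p = 0.0323) and Cyp2e1 (-0.32, adjusted p = 0.0435) lower in DBA/2J. There edgeR called Oat lower with no filter (-0.7, adjusted p = 0.0346). With the 2 covariates it called Oat (-0.89, adjusted p = 0.00824) and Glul (-0.75, adjusted p = 0.027) lower. 129S1/SvImJ had lower Slc1a2 (-0.91 ± 0.23), where 7.86% of all genes were lower and 10.5% higher (18.4% in either direction). With library totals 2 genes, Cyp2e1 (0.53, adjusted p = 0.00267) and Rgn (0.60, adjusted p = 0.0258), were also called higher in 129S1/SvImJ. Of all genes 3052 were then higher and 699 lower in 129S1/SvImJ. In NOD/ShiLtJ library totals gave 4 of the 10 higher and 0 lower, beside 1559 and 554 of all genes, and in DBA/2J 1 and 0, beside 1181 and 453.

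**Figure D2:**
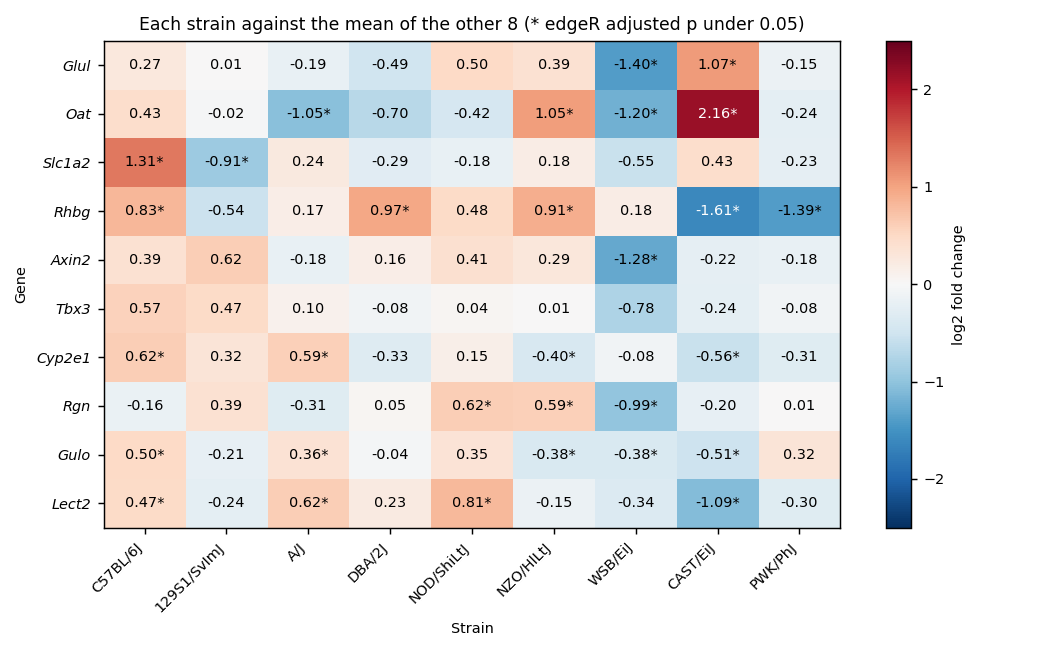
Log2 fold change of each pericentral gene (rows) in each strain against the mean of the other 8 (columns), from the edgeR fit with TMM scaling; asterisks mark adjusted p under 0.05. WSB/EiJ is below 0 for 9 of 10 genes and C57BL/6J above 0 for 9 of 10, while CAST/EiJ ranges from 2.16 (Oat) to -1.61 (Rhbg).

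A list of 23 other pericentral genes, most of them cytochrome P450 enzymes, glutathione transferases and transporters, showed where the 10 genes sat in their zone. Of these 22 differed among strains, as did 16 of 16 periportal genes and 74.2% of all genes tested. In C57BL/6J 12 of the 23 were higher and 0 lower (median log2 change 0.48, all genes 0.01) and in NOD/ShiLtJ 10 were higher and 0 lower (median 0.44). At the other end PWK/PhJ had 2 higher and 11 lower (median -0.48). With library totals C57BL/6J had 9 higher and 0 lower, NOD/ShiLtJ had 14 and 0, and PWK/PhJ 2 and 10. In C57BL/6J the periportal genes went the other way, with 1 of 16 higher and 6 lower (1 and 9 with library totals). They did so in NOD/ShiLtJ, with 0 higher and 7 lower (0 and 6), and in PWK/PhJ, with 5 higher and 2 lower (5 and 1). At 10 CPM or more the widest ranges belonged to the glutathione transferases Gstm3, from 136 ± 32.2 CPM in NOD/ShiLtJ to 0.235 ± 0.0332 CPM in PWK/PhJ, and Gstm2, from 83.1 ± 22.5 to 5.24 ± 0.658 CPM in the same strains. The drug-metabolising Cyp3a11 ran from 6906 ± 1430.4 CPM in A/J to 1033 ± 374 CPM in PWK/PhJ (SD, n = 3). These 3 belong to families of similar genes between which reads can be split, and their values are uncertain for that reason.

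In WSB/EiJ, where 5 of the 10 genes had their lowest mean, periportal genes were higher. Of 16 periportal genes 13 were higher and 0 lower (median log2 change 0.86, all genes 0.00), and with library totals 9 were higher and 0 lower (median 0.51, all genes -0.35). Of the 10 general hepatocyte markers 5 were also higher in WSB/EiJ and 0 lower (median 0.40), and 3 were higher and 1 lower with library totals (median 0.06). Gls2, the periportal glutaminase, reached 604 ± 74.6 CPM in WSB/EiJ against 153 ± 26.9 CPM in A/J. Cps1, the entry enzyme of the urea cycle, reached 8764 ± 1109 CPM against 3354 ± 692 CPM in A/J, and Pck1, an enzyme of glucose synthesis, 2426 ± 648 CPM against 640.5 ± 469.9 CPM in NZO/HlLtJ (SD, n = 3). The 23 other pericentral genes, however, gave 3 higher and 6 lower in WSB/EiJ (median -0.06), against 0 higher and 5 lower of the 10. With library totals this became 2 higher and 10 lower. CAST/EiJ had 7 periportal genes higher and 1 lower (12 and 0 with library totals) beside 5 other pericentral genes higher and 10 lower (8 and 7 with library totals). A/J had 3 periportal genes higher and 8 lower, and 4 other pericentral genes higher and 2 lower (1 and 4 with library totals). NZO/HlLtJ had 3 other pericentral genes higher and 8 lower (5 and 4 with library totals) and 1 periportal gene higher and 6 lower (4 and 5), and 129S1/SvImJ 0 periportal genes higher and 3 lower (3 and 2). Etnppl, highest in PWK/PhJ at 386 ± 56.1 CPM, and Hsd17b6, highest in A/J at 903 ± 30.1 CPM, had the widest ranges among the periportal genes.

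**Figure D3:**
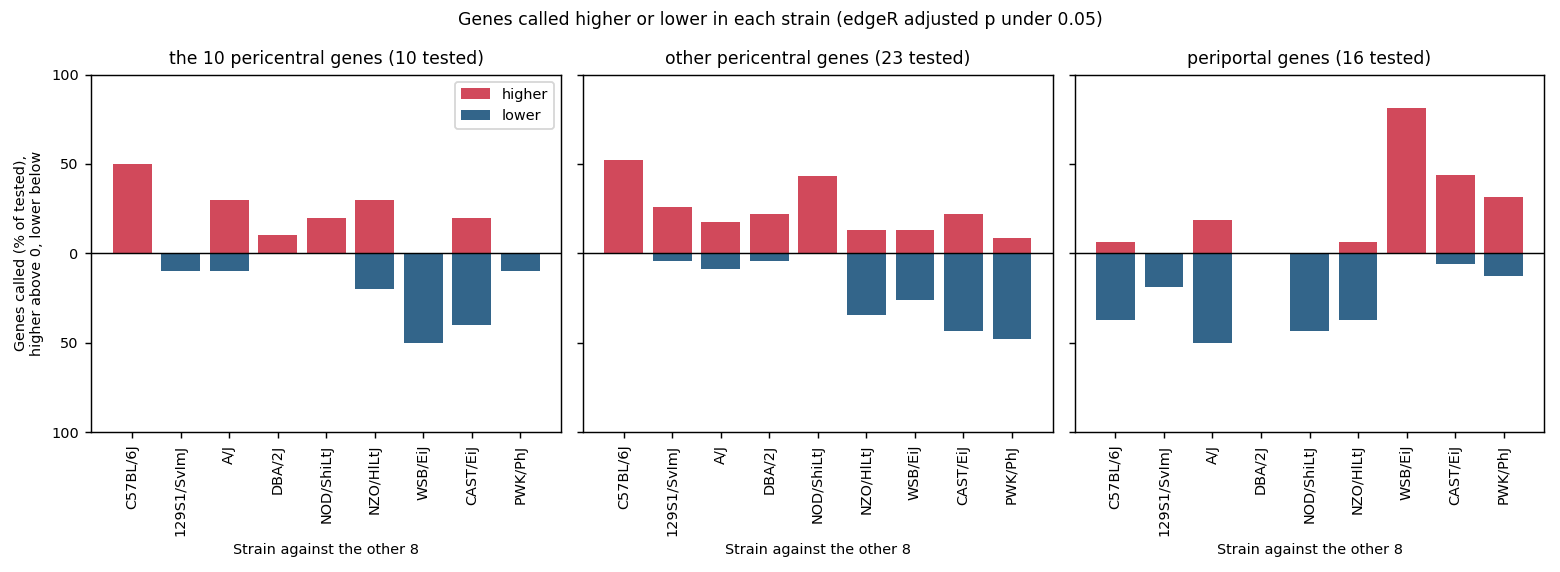
Percent of genes called higher (above 0) or lower (below 0) in each strain against the other 8, for the 10 pericentral genes, 23 other pericentral genes and 16 periportal genes (edgeR, TMM scaling, adjusted p under 0.05). C57BL/6J has only higher calls in both pericentral panels, and WSB/EiJ has 13 of 16 periportal genes higher; both directions were the same with library totals. With library totals the balance of higher and lower calls moved in many bars. Among them were the 10 genes in A/J, 129S1/SvImJ, NZO/HlLtJ, CAST/EiJ and PWK/PhJ. Others were other pericentral genes in A/J, NZO/HlLtJ, CAST/EiJ, WSB/EiJ and DBA/2J, and periportal genes in A/J, 129S1/SvImJ and NZO/HlLtJ.

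Genes around the 10 in their pathways differed among strains about as often as all genes tested (74.2%). Of 8 further Wnt target and feedback genes that could be tested 6 did, and in C57BL/6J 5 were higher and 0 lower (3 and 0 with library totals). Ccnd1, a cell cycle gene among them, stood at 66.8 ± 10.5 CPM in C57BL/6J and 6.28 ± 2.2 CPM in CAST/EiJ, and Notum, which inactivates Wnt ligands, at 58.7 ± 12.4 CPM in A/J and 22.9 ± 2.02 CPM in NZO/HlLtJ (SD, n = 3). In WSB/EiJ, the lowest strain for Axin2, 1 of these genes was higher and 2 lower (0 and 4 with library totals). Of 15 receptors, ligands and other components of the pathway, 11 differed among strains, and of those above 10 CPM the receptors Fzd8, Fzd7 and Fzd4 had the widest ranges (1.30, 1.20 and 1.01 on the log2 scale). Wnt2 and Rspo3, ligands made by liver endothelium and named here after their values were seen, were at only 1.28 and 0.596 CPM on average and highest in PWK/PhJ, at 3.06 ± 1.41 and 1.34 ± 0.363 CPM. Of 11 genes of glutamine, ornithine and ammonia metabolism, among them the periportal Gls2 and Cps1, 9 differed. WSB/EiJ, lowest for Glul and Oat, had 6 of the 11 higher and 1 lower (4 and 1 with library totals), including the glutamine transporter Slc38a3 at 4092 ± 248 CPM and Got1, an aspartate aminotransferase, at 412 ± 149 CPM. Of 5 other genes of vitamin C synthesis and transport 4 differed; the ascorbate transporter Slc23a2 ran from 64.8 ± 20 CPM in A/J to 18.1 ± 1.86 CPM in NZO/HlLtJ and Ugdh, an enzyme of the same synthesis, was at 118 ± 13.3 CPM in CAST/EiJ and 38.2 ± 4.07 CPM in A/J.

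Whether the genes moved together was first described by the Pearson correlation of log2 CPM for each of their 45 pairs, over the 9 strain means and, within strains, over the 27 libraries after the strain mean was subtracted. Libraries share their depth and scaling factor between all genes, so these are descriptions without a test. Over strain means the median was 0.30 and 36 of 45 pairs were positive; within strains the median was 0.17 and 28 of 45 were positive. Over all pairs of genes tested the median was 0 in both. Leaving out 1 library at a time gave jackknife standard errors of 0.11 over strain means and 0.14 within strains. With library totals the medians were 0.47 over strain means and 0.34 within strains, beside 0.14 and 0.07 over all pairs of genes tested. Of the 45 pairs 6 exceeded 0.5 both ways: Glul with Oat, Glul with Axin2, Glul with Rgn, Axin2 with Tbx3, Cyp2e1 with Gulo, and Lect2 with Gulo.

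Within strains some links were stronger than others. Glul, Oat and Rgn were linked to each other (0.64 for Glul with Oat, 0.72 for Glul with Rgn and 0.71 for Oat with Rgn; Spearman 0.48, 0.60 and 0.61), and Slc1a2 to Glul (0.56). Axin2 and Tbx3 were linked at 0.74 (Spearman 0.77), and Gulo to Cyp2e1 (0.56) and to Lect2 (0.53). Glul was also linked to Axin2 (0.55; Spearman 0.59). Weaker positive values ran between these genes as well: Glul with Tbx3 (0.47), Oat with Slc1a2 (0.41), Slc1a2 with Rgn (0.41) and Slc1a2 with Gulo (0.37) were among them. Negative values included Glul with Cyp2e1 (-0.09), Glul with Gulo (-0.31), Oat with Lect2 (-0.43) and Tbx3 with Gulo (-0.40). Leaving out the 2 libraries farthest from the median changed Glul with Oat from 0.64 to 0.36 and Glul with Rgn from 0.72 to 0.60, while Axin2 with Tbx3 stayed at 0.73. Over the 9 strain means Axin2 with Rgn (0.91), Axin2 with Tbx3 (0.88) and Glul with Oat (0.80) were the highest, and Oat with Lect2 (-0.57) the lowest. Without the 2 farthest strains, Axin2 with Tbx3 was 0.46, Axin2 with Rgn 0.81 and Glul with Oat 0.64. Axin2 with Rgn, the highest over strains, was 0.20 within strains.

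**Figure D4:**
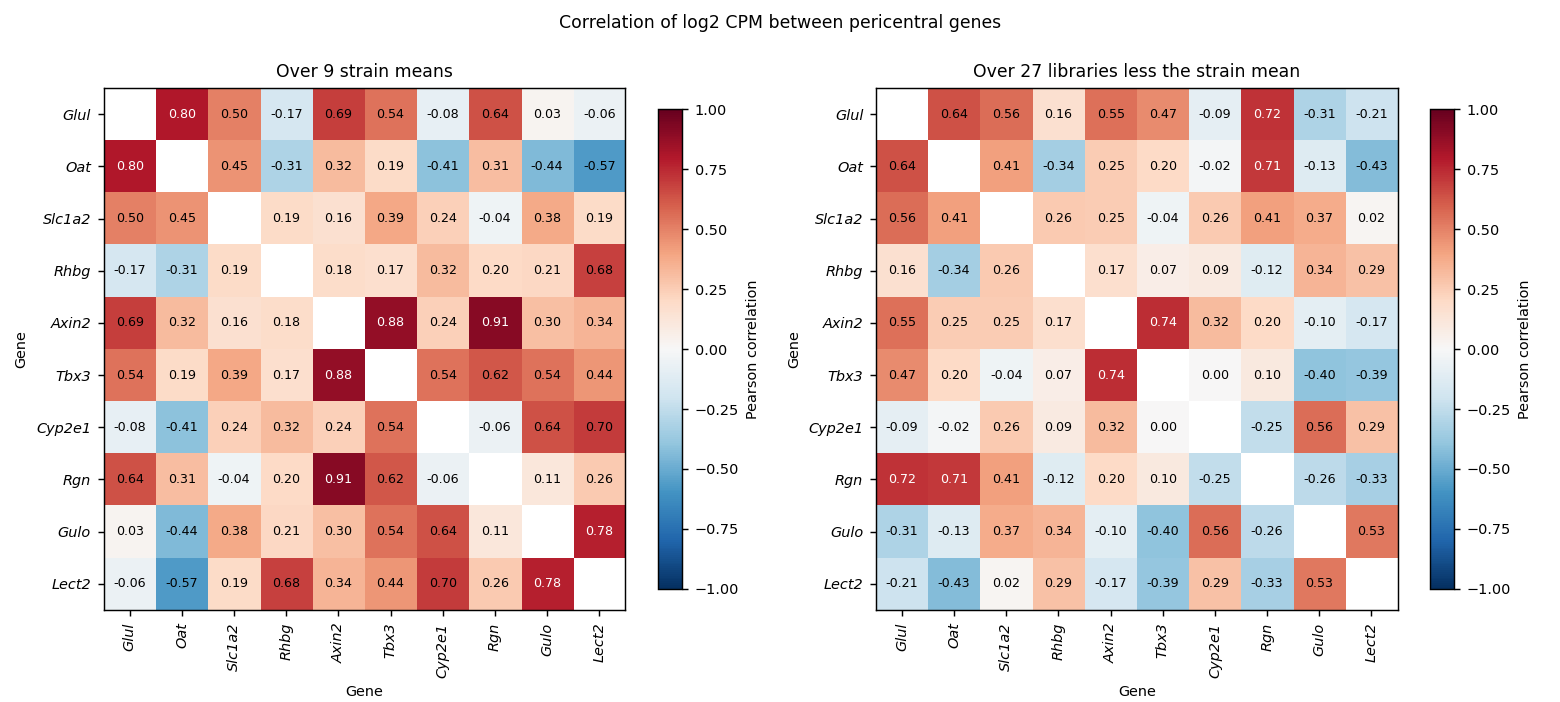
Pearson correlation of log2 CPM between the 10 pericentral genes, over 9 strain means (left) and over 27 libraries less the strain mean (right); the colour scale runs from -1 to 1 and the diagonal is left blank. Glul, Oat and Rgn form a positive block on the right (0.64 to 0.72), and Glul with Gulo is -0.31.

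The tested form of the question took the log2 level of Glul, less its strain mean, as a covariate beside strain in a fit over all genes. Of the 9 other pericentral genes 3 rose with Glul and 0 fell (edgeR quasi-likelihood test, adjusted p under 0.05), where 4.38% of all genes rose and 7.63% fell. They were Rgn (slope 0.36 ± 0.09 SE in log2 per log2, adjusted p = 0.0189), Oat (0.55 ± 0.16, adjusted p = 0.0325) and Slc1a2 (0.41 ± 0.13, adjusted p = 0.0484). Axin2 (0.63 ± 0.21, adjusted p = 0.0554) and Tbx3 (0.56 ± 0.21, adjusted p = 0.0807) had slopes at least as large and missed the threshold. Cyp2e1 (-0.04 ± 0.09, adjusted p = 0.831), Lect2 (-0.08 ± 0.10), Gulo (-0.12 ± 0.09) and Rhbg (0.10 ± 0.16) had the smallest slopes, and none was called. With library totals 5 rose, Axin2 and Tbx3 included, but then 33.6% of all genes rose and 3.5% fell, so that of all called genes 90.6% rose in place of 36.5%.

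The calls depended on single libraries. Without PWK/PhJ replicate 1, where Glul was at 82.5 CPM, 0 of the 9 genes were called, and the slopes were 0.24 for Oat (edgeR adjusted p = 0.407), 0.28 for Rgn (adjusted p = 0.177) and 0.47 for Slc1a2 (adjusted p = 0.155). Without DBA/2J replicate 3, where Glul was at 96.4 CPM, 0 were called as well, at 0.51 for Oat (adjusted p = 0.0911), 0.33 for Rgn (adjusted p = 0.0609) and 0.40 for Slc1a2 (adjusted p = 0.103). Without DBA/2J replicate 4 only Rgn was called. Oat was called in 23, Rgn in 25 and Slc1a2 in 6 of the 27 fits that each left out 1 library, and their lowest slopes in these fits were 0.24, 0.28 and 0.33. Axin2 was called in 3 of them and Tbx3 in 1.

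Markers of other liver cells moved with Glul too. All 8 endothelial markers fell as Glul rose (median slope -0.82, all genes 0.01), among them Clec4g (-0.86 ± 0.17 SE, edgeR adjusted p = 0.00691) and Fcgr2b (-0.78 ± 0.15, adjusted p = 0.00691). None of the 8 Kupffer cell markers and 8 stellate cell markers passed, with median slopes of -0.54 and -0.52. In PWK/PhJ replicate 1, low in Glul, Oat and Rgn, the endothelial markers summed to 564 CPM and the Kupffer cell markers to 339 CPM, against 170.5 and 206 CPM and against 115 CPM in each of the other 2. In DBA/2J replicates 2, 3 and 4 the endothelial sum was 167, 141 and 61.1 CPM while Glul was 184, 96.4 and 208 CPM. In the fit added with both lists' mean levels in the model, 0 of the 9 pericentral genes and 0 of all 14481 genes tested rose with Glul by edgeR, the only tool run on it, where 595 with a positive slope had an unadjusted p under 0.05. The slopes were then 0.42 for Oat (adjusted p = 0.664), 0.26 for Rgn (adjusted p = 0.664) and 0.68 for Slc1a2 (adjusted p = 0.424). With the mean of the immediate early genes, which cell stress induces, as the covariate, also added after the data were seen, Oat, Rgn and Slc1a2 were called as before.

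**Figure D5:**
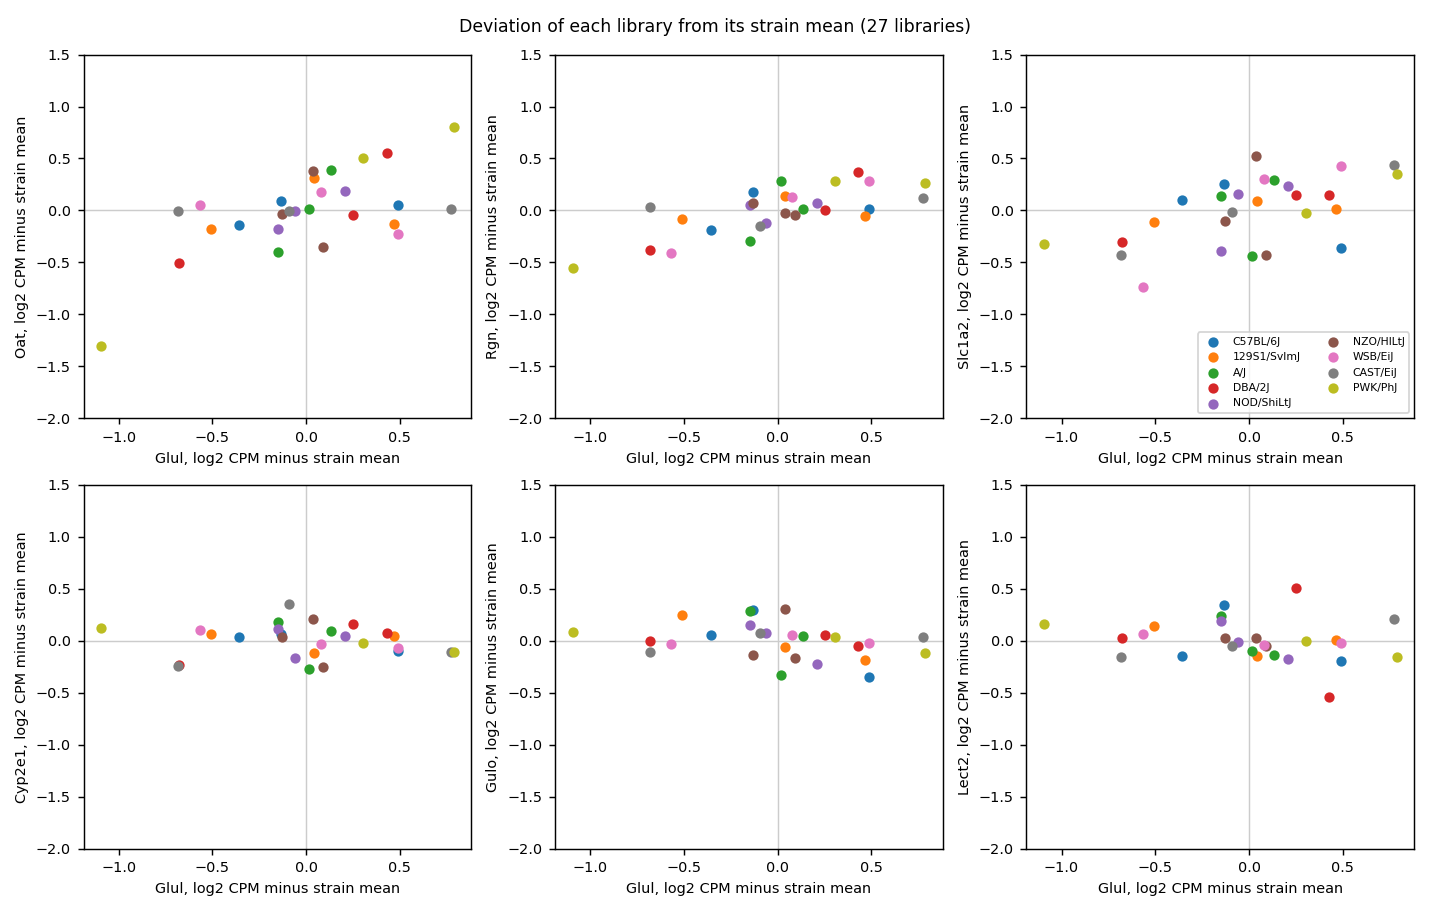
Deviation of each of the 27 libraries from its strain mean on the log2 CPM scale, for Glul (horizontal) against 6 other pericentral genes (vertical); colours are strains. Oat, Rgn and Slc1a2 rise with Glul (slopes 0.55, 0.36 and 0.41), with the low PWK/PhJ library at the far left, while Cyp2e1, Gulo and Lect2 have slopes of -0.04, -0.12 and -0.08.

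Few other genes of the zones were called in the Glul fit, in which 4.38% of all genes rose and 7.63% fell. Of the 23 other pericentral genes 1 rose with it, Slc13a3, a dicarboxylate transporter (slope 0.50 ± 0.14 SE, edgeR adjusted p = 0.0257), and 1 fell, Cyp3a11 (-0.57 ± 0.19, adjusted p = 0.0499), with a median slope of -0.13. Of the 16 periportal genes 0 rose and 2 fell, Hsd17b13 (-0.37 ± 0.08) and Pigr (-0.28 ± 0.08), with a median of -0.09. With library totals the median of all genes was 0.17, and 33.6% of all genes rose and 3.5% fell. Of the other pericentral genes 5 (21.7%) then rose and 0 fell, and of the periportal genes 2 (12.5%) rose and 1 fell. Among the Wnt genes Rnf43 (0.43 ± 0.13), Axin1 (0.27 ± 0.08) and Apc (0.21 ± 0.06) rose, and none of the other targets (8 tested) and components (15 tested) rose or fell by the test. Among the genes of glutamine metabolism Glud1, glutamate dehydrogenase, rose (0.35 ± 0.09) and the amino acid transporters Slc38a3 (-0.44 ± 0.11) and Slc38a4 (-0.35 ± 0.10) fell. With library totals 4 of the 11 (36.4%) rose and 1 fell. Of the 10 hepatocyte markers only Hnf4a was called, and it rose (0.29 ± 0.08, edgeR adjusted p = 0.0298). The median slope of that list was -0.13, with Alb at -0.27 ± 0.10 (adjusted p = 0.0639).

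The same fit was run with each of the 10 genes as the covariate, 90 ordered pairs in all, of which 7 were called positive and 0 negative. They were the 3 on Glul, Glul (slope 0.71 ± 0.20 SE, edgeR adjusted p = 0.0286) and Rgn (0.40 ± 0.10, adjusted p = 0.0184) on Oat, and Glul (1.45 ± 0.32, adjusted p = 0.0122) and Oat (1.20 ± 0.29, adjusted p = 0.0169) on Rgn. Of all genes 5.93% rose and 8.34% fell with Oat, and 4.71% rose and 6.39% fell with Rgn. On Slc1a2, Cyp2e1, Axin2, Lect2 and Tbx3 no gene of the whole table passed, with 642, 913, 1266, 2757 and 1479 of 14481 genes at an unadjusted p under 0.05; only edgeR was run on these. The slope of Tbx3 on Axin2, 0.74 ± 0.15, had an unadjusted p of 4.29e-05 and an adjusted p of 0.207. Gulo, as covariate, called none of the other 9, where 1.09% of all genes rose and 1.03% fell, and Rhbg none, where 0.00691% of all genes passed.

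For 3 of the genes the closest companions over the 9 strain means were looked up among 4849 or 4850 other genes with at least 10 CPM that differed among strains. Those most like Glul were Cdc27 (Pearson r = 0.95), Cd2bp2 (0.94) and Sh3bgrl (0.925); Cdc27 was at 17.8 ± 2.14 CPM in CAST/EiJ and 11.7 ± 0.938 CPM in WSB/EiJ (SD, n = 3). Plpp3 (0.942), Dennd4c (0.92) and Slc22a23 (0.911) were most like Cyp2e1. Ptma (0.94), Tbl1xr1 (0.93) and Aebp2 (0.915) were most like Axin2, and Ptma, like Axin2, was lowest in WSB/EiJ, at 11.5 ± 0.779 CPM. With 9 points and this many candidates, high values of r are easily reached. Within strains the same pairs ranged from -0.13 (Dennd4c with Cyp2e1) to 0.73 (Tbl1xr1 with Axin2). None of the 9 companions is among the pericentral genes listed here.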

How the data were processed

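The authors deposited 1 table of estimated counts, which are expected counts of reads per Ensembl gene made from the sequencing reads and not scaled to depth: 11.07% of the values are not whole numbers, within a tolerance of 1e-06. Per the labels' protocols, total RNA was treated with DNase, and a TruSeq RNA v2 kit gave the libraries from its polyadenylated part. Per the submitters' processing notes, FastQC 0.11.5, DESeq2 and the build GRCm38 (mm10) were used; the aligner, counter and annotation release are not given in the sources used here. Symbols are those of GENCODE M21, which named 42462 of the 43346 genes. The members and gene lists were chosen with earlier results of these data known.

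Counts were rounded and fitted in edgeR 4.0.16 (R 4.3.3, limma 3.58.1): TMM factors, filterByExpr by strain (14482 genes, 99.97% of counts), glmQLFit and glmQLFTest, with Benjamini-Hochberg adjusted p under 0.05 over all genes tested. The 27 libraries of the 9 strains, 3 each, entered every fit. Tests were an F test over strains, each strain against the mean of the other 8, all 36 pairs of strains, and the slope on 1 gene's log2 CPM (prior count 2) less its strain mean, beside strain. The labels call the libraries biological replicates; p-values measure the spread between them. Fold changes and SEs are on the log2 scale. Genes named are the 10 members and, from each list, up to 3 with the widest range of strain means among those called over strains at 10 CPM or more, those called in the Glul fit, and the 3 nearest companions of Glul, Cyp2e1 and Axin2, predicted genes and pseudogenes left out. Alternatives were DESeq2 1.42.0, other scalings, other filters, a prior count of 0.5, a replicate block, leaving out each library, and covariates for cell markers and immediate early genes, the last 2 chosen after the data were seen. The fits were tested on simulated data.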

Additional observations from a re-analysis of the deposited data

How the results depend on the processing

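The number of genes called among strains was 8 to 9 in the alternatives that refitted the test over strains, and the number of gene-by-strain calls, 30 with the settings used above, was 25 with Kupffer cell and endothelial covariates and 35 with DESeq2. With library totals in place of TMM, 5 genes in place of 3 followed Glul, where 33.6% of all genes rose in place of 4.38%. The median correlation of pairs was then 0.34 within strains and 0.47 over strain means, beside 0.07 and 0.14 over all pairs of genes tested. With the Kupffer cell and endothelial covariates 0 of the 9 genes and 0 of all 14481 genes tested followed Glul. Leaving out 1 library at a time gave 0 to 4 genes that followed Glul, with the values without PWK/PhJ replicate 1, DBA/2J replicate 3 and DBA/2J replicate 4 given above. DESeq2 and no filter on low counts each gave 4, Axin2 being added, and median-of-ratios scaling, upper-quartile scaling and a mean of at least 10 counts each gave 2, Slc1a2 being lost. Replicate numbers did not pair libraries across strains: deviations of same-numbered libraries correlated at 0.01 on average over 76 pairs (-0.29 to 0.28), and 7 of 27 libraries were most like one of their own number. With the replicate number as a block, 8 genes were called among strains, 29 gene-by-strain calls were made, 2 genes followed Glul, and the median correlations were 0.15 and 0.20. No direction that was called turned under any alternative run. Depth sets a limit mainly for Axin2 and Rhbg, with as few as 33 and 38 counts in a library. With 3 libraries a strain, 1 library can decide a strain's value, as for Glul in CAST/EiJ. The cause of these changes was not tested.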
